A study of Mus with 6 samples.

Results

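The Usp genes encode the ubiquitin-specific proteases, the most numerous family of deubiquitinases. Their members were taken as every row of the deposited table whose gene name begins with Usp and a digit, which gave 41 of the 10995 protein-coding genes listed. RNA came from naive CD4+ T cells of the spleen of wild-type (WT) mice, cells that have not yet responded to antigen, after 3 days of activation in culture with IL-2 at 100 U/mL and with antibodies to CD28 (2 μg/mL) and CD3 (5 μg/mL). All cells received this activation, and in addition 1 μg/mL of a neutralizing anti–VEGF-B antibody (called treated below) or of normal goat IgG (called control), with 3 RNA-Seq libraries of each. The comparison addresses what neutralizing VEGF-B in the culture does to transcripts, which the paper used to study the VEGF-B that activated T cells release. The source of the VEGF-B was not told apart here. The labels do not say whether the 3 libraries of a treatment came from separate mice or cultures, so that p-values measure the spread between these libraries only, which may be technical.

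Ubiquitin is a small protein that is attached to other proteins, singly or in chains, and marks them for the proteasome, for sorting at membranes or for a change of activity. Ubiquitin-specific proteases cut it off again with a catalytic cysteine, so that they spare substrates from breakdown or end a signal. In T cells, members of the family are known to act on the T cell receptor complex and its adaptors, on NF-κB and NFAT signaling, on FOXP3, and on the chromatin and cell-cycle proteins of dividing cells. By its name rule the family here also holds Usp6nl, which encodes a GTPase-activating protein for Rab proteins and no protease. Another such gene is Usp39, whose protein is regarded as catalytically inactive.

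Values were FPKM, a level per length of transcript and per read total of the library as the authors made it, so that levels may be compared between genes. The number of reads is not known from FPKM and no step worth 1 read could be recovered, so that the spread between libraries is the only error given. Tests used limma on log2(FPKM + 1) over the 8816 genes that averaged 1 FPKM or more, with Benjamini-Hochberg adjustment over all of them, and genes under 0.05 after adjustment are termed called. Differences are given as log2 fold changes on this scale, anti–VEGF-B against IgG, which understate the change of genes with low FPKM. The median difference of all tested genes was -0.15, and the median FPKM of the tested genes ran from 5.43 to 5.67 in treated cells and from 6.20 to 7.08 in controls, highest in control replicate 2. All 9 T cell markers checked were present, with a summed level of 613 to 645 FPKM in treated cells and 603 to 674 in controls, and of these Cd3e and Cd5 were called lower as deposited. Neither was called after median centring (adjusted p from limma 0.0631 and 0.197) or without treated replicate 2, treated replicate 3 or control replicate 2 (0.0546 to 0.117), nor was Cd5 without control replicate 3 (0.0614). The listed myeloid markers (3 of 7) summed to 19.8 FPKM in control replicate 3 and to 3.95 to 5.11 in the other 5 libraries, and their part in any difference was not tested. Cd8a was at 0.182 FPKM or less in every library, the single B cell marker listed, Cd79b, at 0.665 to 1.34, the single NK cell marker listed, Klrk1, at 0.0943 or less, and Cd8b1 at 2.27 to 4.51.

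With anti–VEGF-B, 3 Usp genes were lower and 1 was higher past the test, and 32 of the 36 tested were not called. Usp8 had the largest difference of the 36, with a mean that fell by 43.1%, followed among the called genes by Usp33 (fell by 29.2%) and Usp15 (fell by 22.6%), whereas Usp3 rose by 19.0%. The share of Usp genes called lower was 8.33%, against 23.8% of all tested genes, and the share called higher was 2.78%, against 4.87% of all tested genes. Without treated replicate 3 Usp8 alone was called, and in none of the 6 fits without 1 library was a Usp gene called higher. The median log2 fold change of the 36 genes was -0.09, and 23 of them lay above the median of all tested genes. In bulk RNA, fewer cells of a type and less RNA per cell cannot be told apart.

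The levels of the family spanned 89.4-fold, from a mean of 0.431 FPKM for Usp27x to 38.6 for Usp7. A mean of at least 10 FPKM was reached by 12 genes, 24 lay between 1 and 10, and 5 lay under 1 and were not tested, while no Usp gene was listed at 0 in any library. Summed over the 41 genes, the family had 348, 367 and 348 FPKM in treated and 358, 391 and 375 in the control libraries, which overlapped. This was 0.126% to 0.140% of all listed FPKM in treated cells and 0.129% to 0.150% in controls. The 5 most abundant genes, Usp7, Usp25, Usp22, Usp3 and Usp34, made up 40.3%, 40.4% and 41% of this sum in treated cells and 37.0%, 36.4% and 38.0% in controls, so that their share was higher in each treated library than in any control. Split by level, the 12 genes of at least 10 FPKM had a median log2 fold change of -0.07 with 0 called lower and 1 higher, where all genes of that level had -0.05 with 18.0% called lower and 9.46% higher. Between 1 and 5 FPKM the 12 Usp genes had a median of -0.12, against -0.22 for all genes there. From 5 to 10 FPKM the medians of the 12 Usp genes and of all genes were -0.13 and -0.18.

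**Figure D1:**
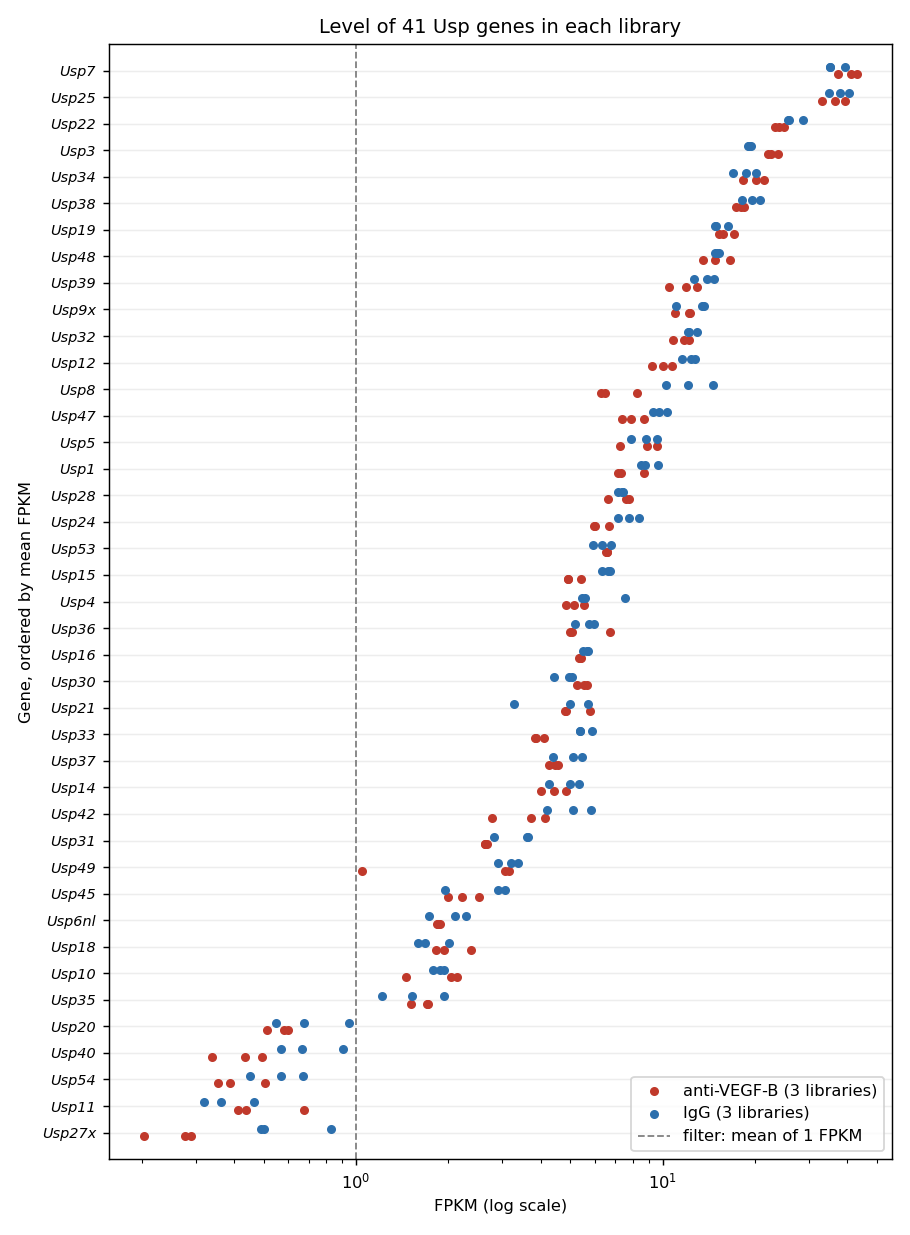
FPKM (log scale) of the 41 Usp genes in each of the 6 libraries, ordered by mean level, with anti–VEGF-B libraries in red, IgG libraries in blue and the filter of a mean of 1 FPKM as a dashed line. Usp7 and Usp25 stand highest, the red and blue points of Usp8 lie apart, and 5 genes lie left of the filter.

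Usp8 encodes a deubiquitinase of endosomes that acts with the ESCRT machinery in the sorting of receptors, and it binds the T cell adaptor GADS. The gene lies on chromosome 2 (126707328 to 126759297 of GRCm38, plus strand). It was at 8.24, 6.32 and 6.48 FPKM in treated and at 10.3, 14.6 and 12.1 in the control libraries. All 3 treated libraries lay under all 3 controls, and control replicate 2 was the highest. The mean fell from 12.3 ± 2.18 FPKM to 7.01 ± 1.06 (± SD over 3 libraries), and limma gave a log2 fold change of -0.73 (SE 0.138) with adjusted p = 0.00921, or -0.58 relative to the median of all tested genes. Under the 3 other scalings between libraries the log2 fold change ran from -0.58 to -0.53 and Usp8 was called in each, as it was in every fit that left out 1 library (adjusted p from limma 0.0100 to 0.0361). Of the 4 called genes it was the only one called under all of these.

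Usp33, on chromosome 3 (152346478 to 152393617, plus strand), encodes a deubiquitinase of the ER and of centrosomes that was first found through its binding to the von Hippel–Lindau protein. The treated libraries had 4.09, 3.82 and 3.87 FPKM and the control libraries 5.87, 5.39 and 5.39. These groups lay apart with little spread within either. The means were 3.93 ± 0.144 and 5.55 ± 0.275 FPKM (± SD over 3 libraries), and limma gave a log2 fold change of -0.41 (SE 0.0918) with adjusted p = 0.0143. After quantile normalization, cyclic loess and median centring the difference was -0.20, -0.20 and -0.21 and was not called (adjusted p from limma 0.131 to 0.152), nor was it without treated replicate 3 (adjusted p = 0.0570 from limma). Its nearest relative Usp20 lay under the filter, at 0.600, 0.582 and 0.513 FPKM in treated cells and 0.550, 0.679 and 0.945 in controls, and these values overlapped.

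Usp15 encodes a relative of Usp4 and Usp11 known in T cells for stabilizing MDM2, and it lies on chromosome 10 (123105006 to 123196995, minus strand). It was at 4.93, 5.42 and 4.93 FPKM in treated cells and 6.63, 6.36 and 6.75 in controls. The groups did not overlap. The log2 fold change was -0.32 with an SE of 0.0898, and its adjusted p in limma was 0.0309. It was not called after quantile normalization, cyclic loess or median centring (-0.11, -0.12 and -0.11), nor without treated replicate 1, treated replicate 3, control replicate 1 or control replicate 3 (adjusted p from limma 0.0858, 0.107, 0.0555 and 0.0883). Over all 13 alternatives its adjusted p ran from 0.0286 to 0.405.

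Usp3 encodes a nuclear deubiquitinase of histone H2A and H2B with a part in the DNA damage response, and it was the single member called higher. It lies on chromosome 9 (66514637 to 66593142, minus strand). Its level was 23.8, 22.6 and 22.2 FPKM in treated cells against 19.5, 19.2 and 18.9 in controls. Every treated library stood above every control. The means of 22.9 ± 0.870 and 19.2 ± 0.263 FPKM (SD, n = 3 each) gave a log2 fold change of 0.24 with an SE of 0.0725 and, in limma, adjusted p = 0.0373, or 0.39 relative to the median of all tested genes. Quantile normalization (0.33), cyclic loess (0.32) and median centring (0.44) each kept the call. It was not called in any fit that left out 1 library (adjusted p from limma 0.0569 to 0.107, with log2 fold changes of 0.21 to 0.26). When limma's variances were not moderated, 0 Usp genes were called (adjusted p from 0.0693 to 0.0854 for the 4 genes above). Of all tested genes, 0.0681% were then called lower and 0.0681% higher. In that fit 9 Usp genes had an unadjusted p under 0.05, and the number among all tested genes was not counted. In the moderated fit it was 9 of 36 Usp genes and 3806 of 8816 tested genes. None of the 4 called genes overlapped another gene of the table.

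**Figure D2:**
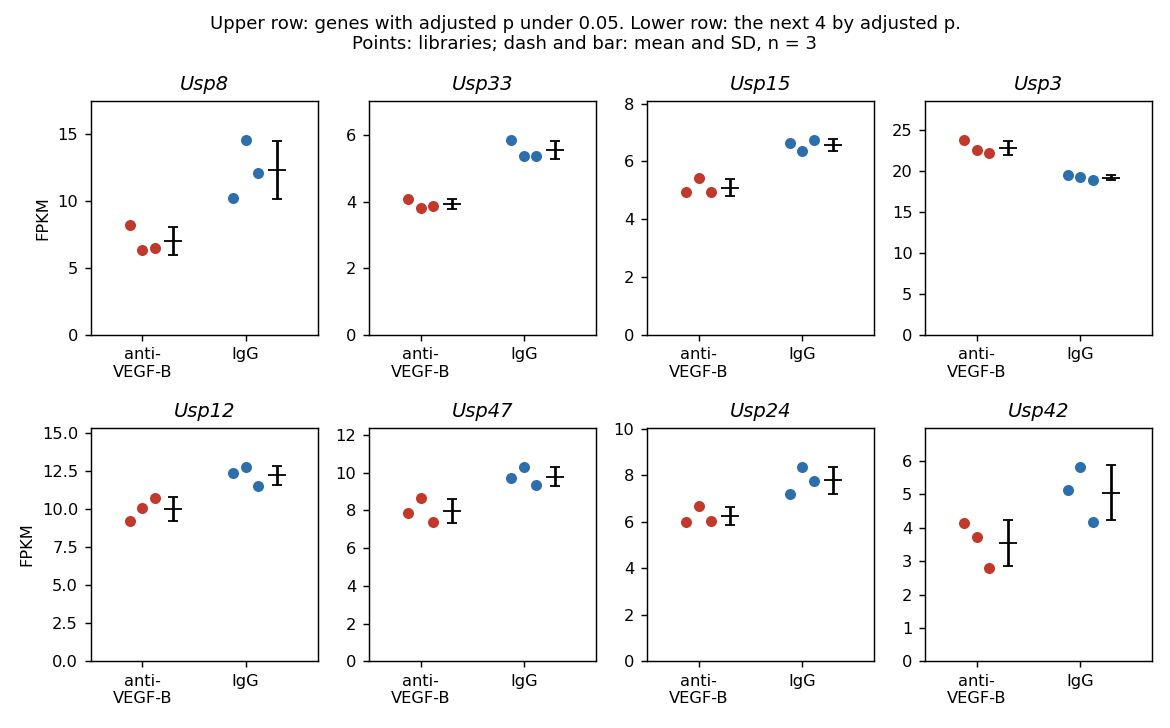
FPKM in each library for the 4 called Usp genes (upper row) and the next 4 by adjusted p (lower row), with the mean and SD of 3 libraries beside the points and axes that start at 0. In all 8 panels the red anti–VEGF-B points and the blue IgG points do not overlap, and Usp3 alone is higher with anti–VEGF-B.

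Just past the threshold stood 4 genes that were not called. Usp12, whose protein works with WDR48 and is known to keep the T cell receptor at the cell surface, was at 9.24, 10.1 and 10.8 FPKM in treated cells and 12.4, 12.8 and 11.6 in controls (limma, log2 fold change -0.27 at an adjusted p = 0.0518). The level of Usp47, which acts on DNA polymerase beta, was 7.87, 8.67 and 7.39 against 9.73, 10.3 and 9.33 FPKM (log2 fold change -0.27, adjusted p = 0.0551). Usp24, one of the very large members, had 6.0, 6.68 and 6.03 against 7.18, 8.37 and 7.77 FPKM (log2 fold change -0.28, adjusted p = 0.0557). All 3 genes were lower in each treated library. Usp42, linked to p53 and histone H2B, had 4.14, 3.73 and 2.78 against 5.12, 5.83 and 4.19 FPKM (limma, log2 fold change -0.41 at an adjusted p = 0.0597), and its lowest control lay only just above its highest treated library. Usp24 passed without control replicate 1 (adjusted p = 0.0482 from limma) and Usp42 without control replicate 3 (adjusted p = 0.0453). On the other side of the threshold, the last genes called were Usp15 and Usp3.

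Without overlap between the groups, 10 of the 36 tested Usp genes (27.8%) were lower in treated cells and 2 (5.56%) were higher, against 38.5% and 10.5% of all tested genes (49% in either direction). Beyond the genes named so far, these were Usp22, Usp31 and Usp16 among the lower and Usp30 as the second higher gene. For 1 gene taken alone, the exact permutation test (two-sided) gives such a separation p = 0.1, its minimum with these group sizes.

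Most of the abundant members differed little. Usp7, which deubiquitinates MDM2 and p53 and stabilizes FOXP3, was at 37.3, 43 and 41.2 FPKM in treated cells and 35.2, 35.2 and 39.4 in controls (log2 fold change 0.14, 95% interval -0.05 to 0.33, adjusted p = 0.214 from limma). Usp25, known from IL-17 receptor signaling, had 36.5, 39.4 and 33.1 FPKM and 35.0, 40.6 and 37.9 (log2 fold change -0.06, interval -0.26 to 0.14). Both overlapped between groups. Usp22, the deubiquitinase of the SAGA coactivator that acts on histone H2B, had 24, 23.3 and 24.9 against 25.7, 28.7 and 25.8 FPKM, lower in every treated library but not called (limma, log2 fold change -0.14 at an adjusted p = 0.178). Usp34, which acts on axin in Wnt signaling, had 18.3, 20.2 and 21.4 against 17, 18.7 and 20.2 FPKM (log2 fold change 0.10, adjusted p = 0.448).

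The smallest differences of the family were those of Usp28, Usp10 and Usp48. Usp28, which stabilizes MYC, was at 6.61, 7.76 and 7.62 FPKM in treated cells and 7.42, 7.38 and 7.17 in controls (log2 fold change 95% interval -0.21 to 0.21). Usp10, a partner of the stress granule protein G3BP1, was at 2.05, 2.13 and 1.45 against 1.78, 1.94 and 1.88 FPKM (interval -0.27 to 0.27). Usp48, a nuclear member that acts on RELA, was at 13.6, 14.8 and 16.6 against 14.8, 15.3 and 15.1 FPKM (interval -0.21 to 0.20). In all 3 genes the treated libraries spread on both sides of the controls, and the 3 intervals still allow a difference of 0.20 in either direction.

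Grouped by what the proteins are known for, the called genes fell into 3 roles, namely chromatin, signaling and membranes. Of the 6 tested genes of DNA repair and replication, limma called 0 at an adjusted p under 0.05, against 28.7% of all tested genes. An unadjusted p under 0.05 was reached by 1 of them (Usp47) and by 3806 of all 8816 tested genes. Usp1, which deubiquitinates PCNA and FANCD2, was at 7.72 ± 0.833 FPKM in treated cells and 8.98 ± 0.609 in controls (SD, n = 3 each), a log2 fold change of -0.20 with overlapping groups. Usp45, which acts on ERCC1, had -0.15 with a wide spread in IgG, from 1.95 to 3.07 FPKM. Of 6 genes of histones and chromatin Usp3 was called higher (16.7%, against 4.87% of all tested genes). Usp16, which acts on histone H2A in mitosis, showed the smallest replicate spread of the family (5.33 to 5.42 against 5.52 to 5.71 FPKM), and its log2 fold change of -0.06 was not called (adjusted p = 0.634 from limma). Usp21 was at 3.28 FPKM in control replicate 2 and at 4.99 and 5.73 in the other controls, and Usp49 at 1.04 FPKM in treated replicate 3 and at 3.06 and 3.15 in the other treated libraries. These were the most variable members, and 1 library decided the value of each. Without treated replicate 3 the log2 fold change of Usp49 was -0.02 in place of -0.35, and without control replicate 2 that of Usp21 was -0.05 in place of 0.14.

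Of 10 genes of signaling and immune regulation Usp15 was called lower (10.0%, against 23.8% of all tested genes), and 8 had a negative log2 fold change. Usp4, its relative, had -0.21 (adjusted p = 0.221 from limma), with 4.85 to 5.53 FPKM against 5.44 to 7.57. Usp9x, an X-linked gene whose large protein is known to take part in T cell receptor signaling, was at 11.8 ± 0.719 and 12.7 ± 1.44 FPKM (SD, n = 3 each), a difference within the spread. Usp31 and Usp38, both linked to NF-κB or innate signaling, had -0.25 and -0.11 and were not called, although Usp31 passed without control replicate 1 (limma, log2 fold change -0.34 at an adjusted p = 0.0409). Usp18, which removes the ubiquitin-like protein ISG15 rather than ubiquitin and restrains interferon signaling, was low, at 1.93, 2.36 and 1.82 against 1.59, 1.67 and 2.01 FPKM (log2 fold change 0.14, adjusted p = 0.366). Its groups overlapped, since control replicate 3 exceeded 2 of the treated libraries.

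Of 6 tested genes that work at membranes, Usp8 and Usp33 were called lower (33.3%, against 23.8% of all tested genes). Usp30, which is anchored in the mitochondrial outer membrane and opposes Parkin in mitophagy, was at 5.55, 5.25 and 5.67 FPKM in treated cells and 4.93, 5.05 and 4.41 in controls. It was higher in each treated library but not called (limma, log2 fold change 0.16 at an adjusted p = 0.207). Its locus overlaps by 795 bases that of Alkbh2 on the other strand, which was called higher (limma, log2 fold change 0.46 at an adjusted p = 0.00690), and whether the authors counted by strand is not stated. Usp19 with an ER-anchored form, Usp32 of Golgi membranes and the Rab regulator Usp6nl had 0.06, -0.10 and -0.08, all with overlapping groups. Usp5, which takes apart free ubiquitin chains, had -0.03, and Usp14, which is bound to the proteasome, had -0.11 (adjusted p = 0.853 and 0.480 from limma). The remaining tested members were the splicing factor Usp39 (-0.21), Usp53 (0.05), the nucleolar Usp36 (-0.02), the cyclin A deubiquitinase Usp37 (-0.14) and Usp35 (0.06). None of these 5 was called, and their intervals all included 0. Usp37 shares 24785 bases of its locus with Cnot9 on the other strand, which was called lower (limma, log2 fold change -0.36 at an adjusted p = 0.0359).

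**Figure D3:**
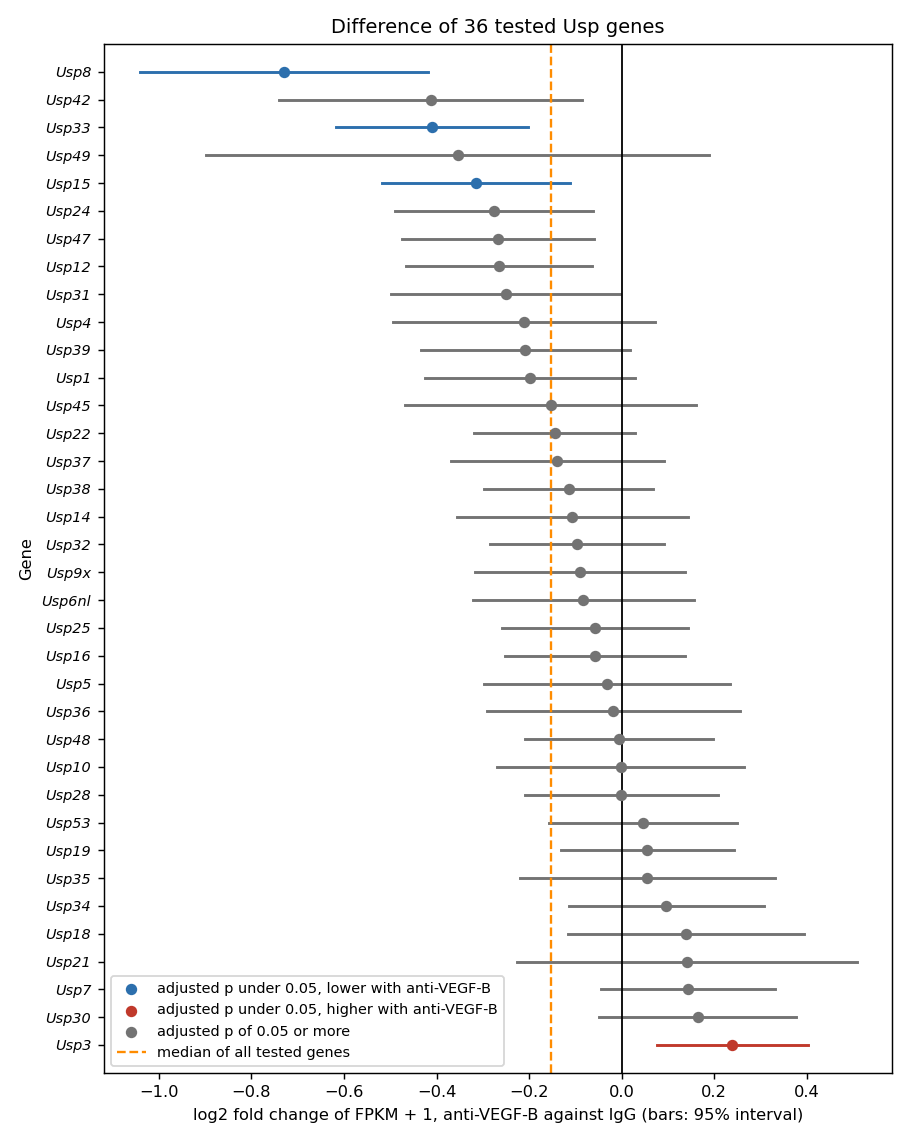
log2 fold change of FPKM + 1 between anti–VEGF-B and IgG for the 36 tested Usp genes, ordered from Usp8 (-0.73) to Usp3 (0.24), with 95% intervals from limma, the 3 genes called lower in blue and the 1 called higher in red. The dashed line is the median of all tested genes (-0.15), and 23 of the 36 points lie to its right.

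The 5 genes under the filter were read from the fit over all 10995 listed genes. There 20.6% of genes were called lower and 3.75% higher. Usp27x, an X-linked relative of Usp22, was at 0.290, 0.277 and 0.204 FPKM in treated cells and 0.491, 0.826 and 0.501 in controls and was called lower (limma, log2 fold change -0.35 at an adjusted p = 0.0332). Usp40, Usp54 and Usp20 had log2 fold changes of -0.26, -0.14 and -0.13, and Usp11, a relative of Usp15, had 0.12 (adjusted p from limma 0.0716 to 0.330). Among these, Usp40 was lower in each treated library and the other 3 overlapped. At such levels the precision that counting allows is unknown.

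Rescaling the libraries moved the whole table and the Usp genes with it. The median log2 fold change of all tested genes went from -0.15 as deposited to 0.0077 after quantile normalization, 0.0019 after cyclic loess and 0.049 after median centring, and 71.2%, 48.9%, 49.7% and 43.1% of all tested genes had a negative value. Of the 36 Usp genes 27, 15, 15 and 11 had a negative value in the same order, and median centring shifts every gene by the same amount, so that small values change sign with it. The calls split into 3 lower and 1 higher as deposited, 1 and 3 after quantile normalization or cyclic loess, and 1 and 5 after median centring. Over all tested genes the share of calls that were lower went from 83.0% to 50.9%, 52.4% and 37.2%. Usp8 and Usp3 were called in all 4. Usp30 and Usp18 were called higher after each of the 3 rescalings (0.37, 0.37 and 0.37 for Usp30 and 0.37, 0.37 and 0.34 for Usp18, in the order quantile, cyclic loess, median centring), with adjusted p from limma of 0.0204 to 0.0235 and 0.0419 to 0.0489. Usp7 (0.34) and Usp19 (0.26) were called higher after median centring alone (adjusted p = 0.0339 and 0.0372 from limma). In the same fits, the median of the Usp genes exceeded that of all genes by 0.06 as deposited and by 0.07, 0.07 and 0.06 after the rescalings.

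**Figure D4:**
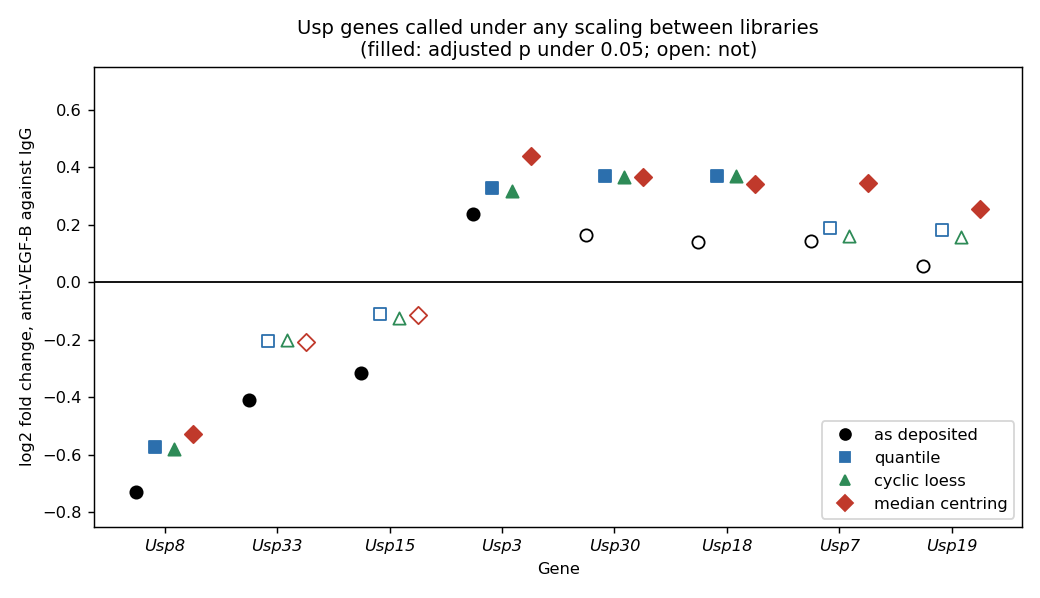
log2 fold change of the 8 Usp genes called under any of 4 scalings between libraries, with filled symbols for an adjusted p under 0.05. Usp8 and Usp3 are filled in all 4, Usp33 and Usp15 only as deposited, Usp30 and Usp18 in the 3 rescalings, and Usp7 and Usp19 only after median centring.

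The FPKM ratio of 2 genes within a library is not altered by a common factor for that library, though rescaling that depends on the level (quantile normalization, cyclic loess) can alter it, and it was compared as deposited for 6 pairs of related members. The ratio of Usp22 to Usp3, both histone deubiquitinases, was 1.01, 1.03 and 1.12 in treated cells and 1.32, 1.49 and 1.36 in controls. The ratio of Usp9x to Usp24, both very large proteins, was 1.84, 1.83 and 2.04 against 1.54, 1.6 and 1.76. In both pairs the groups lay apart, which gives the minimum of the exact permutation test at these group sizes (two-sided p = 0.1, adjusted p = 0.3 over the 6 pairs). All 6 pairs were chosen after their values were seen, so that p-values here only describe the separation. For Usp15 to Usp4 (0.985 ± 0.0290 against 1.09 ± 0.216, SD, n = 3 each) and for Usp25 to Usp28 (4.98 ± 0.598 against 5.17 ± 0.398) the ratios overlapped, as they did for Usp16 to Usp45 and Usp36 to Usp42 (p = 0.2 to 0.7 in the same exact test).

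Other deubiquitinases and genes of related proteins, including 3 of the USP fold, were read from the same fit and are termed other deubiquitinases. Of 31 tested genes outside the Usp names, 9 were lower (29.0%, against 23.8% of all tested genes) and 1 was higher (3.23%, against 4.87%), with a median log2 fold change of -0.19. The lower count was 5 without treated replicate 2 or without control replicate 3, where 16.2% and 17.3% of all tested genes were called lower. It was 2 without treated replicate 3, against 7.88% of all tested genes. The higher count was 2 without treated replicate 1, against 3.54% of all tested genes. Otulin, which cleaves linear ubiquitin chains and restrains NF-κB, rose from 19.4, 20.7 and 21.2 FPKM in controls to 27, 31.9 and 28.3 in treated cells (limma, log2 fold change 0.49 at an adjusted p = 0.00762). Other OTU enzymes fell, namely Otud7b (-0.54), Vcpip1 (-0.53), Otud4 (-0.39) and Otub1 (-0.30), of which Otub1 lost its call in each of the 6 fits without 1 library and in each rescaling. Otud4 lost it in each rescaling too (adjusted p from limma 0.101 to 0.166) and without treated replicate 1 or 3 or control replicate 2 or 3 (0.0720 to 0.111), and Vcpip1 lost it without treated replicate 3 (0.0539). Of the Josephin enzymes Josd1 (-0.63, adjusted p = 0.0136) and Atxn3 (limma, log2 fold change -0.58 at an adjusted p = 0.0160) fell. Without treated replicate 3 Atxn3 was not called (adjusted p = 0.0598 from limma). Uchl3 (-0.40), Mindy3 (-0.48) and Zufsp (-0.35), the last active in DNA repair, also fell, but these 3 were not called after quantile normalization, cyclic loess or median centring, or without treated replicate 2 or 3, and Mindy3 and Zufsp also not without control replicate 3, nor Zufsp without treated replicate 1 or control replicate 2. None of the 6 tested JAMM metalloproteases, which include the proteasomal Psmd14, were called by limma. Neither was any of the 3 further genes of the USP fold (Cyld, Uspl1 and Pan2). Of all tested genes, 28.7% were called. An unadjusted p under 0.05 was found for 0 of the 9 JAMM and USP-fold genes and for 3806 of all 8816 tested. Tnfaip3, which encodes the NF-κB inhibitor A20, was at 44.0, 56.2 and 61.5 FPKM against 45.3, 33.6 and 46.9 and was not called (limma, log2 fold change 0.36 at an adjusted p = 0.101). Whether the Usp genes differed from the other families was not tested.

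**Figure D5:**
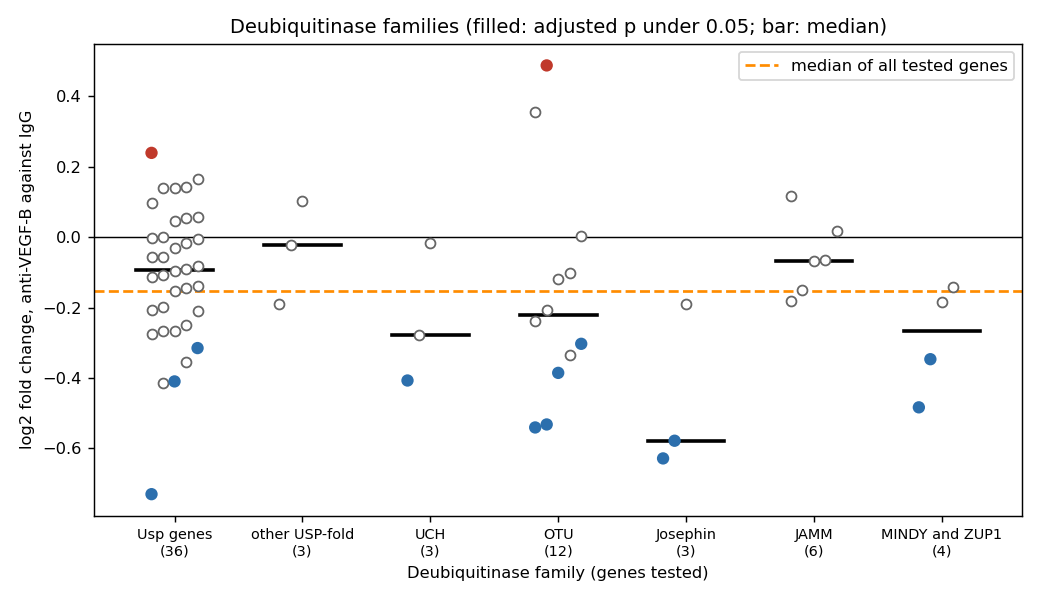
log2 fold change of the tested deubiquitinase genes by family, with the number tested under each name, filled points for an adjusted p under 0.05 (blue lower, red higher), a bar for the family median and the median of all tested genes as a dashed line. The Usp points run from -0.73 to 0.24, and the OTU family holds both the highest point (Otulin, 0.49) and 4 genes called lower.

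Partners of Usp enzymes and genes related to such partners formed a further list, of which 15 genes were tested. Of these, 2 were lower (13.3%, against 23.8% of all tested genes) and 1 was higher (6.67%, against 4.87%). Atxn7l2, of the family of the SAGA subunit ATXN7 that tethers USP22, rose from 32.4, 25.6 and 34.3 FPKM in controls to 47.3, 63.3 and 65.0 in treated cells (limma, log2 fold change 0.90 at an adjusted p = 0.00607). Its groups lay far apart, and the call held in every fit that left out 1 library and under each scaling. Atxn7 itself fell (limma, log2 fold change -0.45 at an adjusted p = 0.0147), though not after quantile normalization, cyclic loess or median centring (0.0658 to 0.114) or without treated replicate 3 (0.0561), and Atxn7l3b fell as well (-0.51, adjusted p = 0.0110). Atxn7l3 and Eny2, which encode subunits of the SAGA deubiquitinase module, had -0.27 and -0.14 and were not called. Wdr48, the activator of USP1, USP12 and USP46, was at 6.99, 6.29 and 6.50 against 7.90, 8.74 and 7.81 FPKM (limma, log2 fold change -0.27 at an adjusted p = 0.0533), lower in each treated library but not called. Stam and Stam2, which recruit USP8 to endosomes, had 0.20 and 0.01, and G3bp1, G3bp2 and Gmps, partners of USP10 and USP7, had -0.03, 0.06 and -0.02. None of these 5 was called, though Stam and G3bp2 were higher in each treated library. Of the 15 genes, 20% were higher and 26.7% lower without overlap, against 10.5% and 38.5% of all tested genes.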

How the data were processed

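RNA of 6 samples was sequenced, grouped by the antibody named in their labels (3 anti–VEGF-B, 3 IgG). The authors aligned stranded reads to GRCm38 with hisat2, quantified them with StringTie and Ballgown, and deposited 1 table, treated as FPKM because its values are not whole numbers. Any filter or scaling between libraries is not stated. Among genes under 0.3 FPKM at most 1.37% shared a ratio between libraries, so that no reads were recovered. Symbols of all 41 members matched RefSeq (GRCm38.p6). No sequence was used here, and other Usp genes were not analysed here.

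With R 4.3.3 and limma 3.58.1, log2(FPKM + 1) was fitted over all 6 libraries for the 8816 genes averaging 1 FPKM or more (empirical Bayes with trend, no covariate). The fit was tested on simulated data. Every Usp gene could be named, and of other lists only called genes with the 5 lowest p per list, with a few uncalled members and partners added after their values were seen, as were the 6 ratio pairs. The members and lists were chosen with earlier results of these data known.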

Additional observations from a re-analysis of the deposited data

How the results depend on the processing

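After quantile normalization, median centring and cyclic loess, 913, 807 and 938 genes in all were called lower (2099 as deposited) and 880, 1365 and 852 higher (429). Of the Usp genes, 1, 1 and 1 were then lower (3) and 3, 5 and 3 higher (1), with 2 of the 4 called as deposited kept in each, and the median log2 fold change of the Usp genes was 0.078, 0.11 and 0.073 (-0.09). Of the other deubiquitinases 4, 4 and 4 were lower (9), and 2 were higher after median centring (1). With no moderation of the variance 6 genes in all were lower and 6 higher, and 0 Usp genes and 0 other deubiquitinases were called in either direction by limma, where 9 and 13 had an unadjusted p under 0.05. How many of all tested genes had an unadjusted p under 0.05 was not counted in this fit or in those without 1 library. Leaving out 1 library gave 695 to 2071 lower and 164 to 396 higher genes in all, 1 to 4 lower and 0 higher Usp genes (with 1 at an unadjusted p under 0.05 in each fit), 2 to 9 lower and 1 to 2 higher other deubiquitinases, and a Usp median of -0.14 to -0.06, the latter without IgG replicate 2. The lowest counts of all genes came without anti–VEGF-B replicate 3 (7.88% lower in place of 23.8%), followed by those without IgG replicate 2 (1101 lower, 258 higher), and without anti–VEGF-B replicate 1 there were 1367 lower. These fits kept the same 8816 genes. With the replicate number as a block, 5 Usp genes were lower, with Usp47 and Usp42 added, and 1 higher. In that fit 23.9% of all tested genes were called lower and 5.32% higher. Same-numbered libraries deviated together only weakly (correlations of -0.03, 0.11 and 0.09), and not every library correlated best with its own number, so that the numbers were not taken as pairs. All listed genes without a filter, and a pseudocount of 0.1, kept the calls of the 4 Usp genes. The cause of these changes was not tested, except that fits with fewer libraries have fewer degrees of freedom. Depth is unknown and its limits could not be given.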

Other observations

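Ubb, which encodes ubiquitin, was at 1010, 903 and 1071 FPKM with anti–VEGF-B and 839, 707 and 810 with IgG, and it was higher in each treated library (log2 fold change 0.34, adjusted p = 0.0312 from limma). It was not called without anti–VEGF-B replicate 1 or 3 or without IgG replicate 2 or 3 (adjusted p from limma 0.0655 to 0.130) nor with no moderation of the variance (0.111), and across the 13 alternatives the adjusted p lay between 0.0106 and 0.130. Rps27a, which encodes ubiquitin fused to a ribosomal protein, had a log2 fold change of 0.22, and the activating enzymes Uba1 and Uba6 had -0.23 and -0.08. None of these 3 was called.

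Isg15, which encodes the modifier that Usp18 removes, and genes that attach it were compared between anti–VEGF-B and IgG. Of these, 3 were tested and 0 were called by limma, against 28.7% of all tested genes. None of the 3 had an unadjusted p under 0.05, against 3806 of all 8816 tested genes. Uba7 (0.684, 0.776 and 0.664 against 0.993, 1.24 and 0.926 FPKM) and Herc6 (0.430, 0.325 and 0.271 against 0.441, 0.452 and 0.437) lay under the filter. Both were lower in each treated library but not called in the fit over all listed genes (adjusted p from limma 0.0652 and 0.302). Isg15 itself was at 14.4, 12.7 and 18.0 FPKM with anti–VEGF-B and 18.0, 14.3 and 16 with IgG, with overlapping groups. The log2 fold changes of Isg15, Trim25 and Ube2l6 were -0.10, -0.13 and -0.32, beside 0.14 for Usp18.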
